A study of Homo sapiens with 42 samples.

Results

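Open chromatin at sites away from gene starts was compared across 4 EGFR-mutant lung adenocarcinoma cell lines, PC9, H1975, HCC827 and HCC2935, in 6494 regions that all 4 lines shared. The starting set was the 69565 regions that the authors annotated in PC9, all of the same width. A region was kept if it lay more than 3 kb from the nearest annotated gene start and overlapped an annotated region of each of the other lines over at least 50% of its width. Of 33724 PC9 regions past 3 kb, 61.55% overlapped a region of H1975, 56.06% one of HCC2935 and 25.34% one of HCC827, and 19.26% overlapped all of them. Each kept region had a single partner in every line, and the median of the smallest overlap was 459 bp. Near the limits, 60 kept regions lay within 100 bp beyond the distance of 3 kb and 50 shared regions within 100 bp short of it were left out, while 34 regions passed the overlap by less than 10 bp and 30 missed it by 10 bp or less.

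The assay was ATAC-seq, which counts the cuts a transposase makes in accessible DNA. Control cells of each line were kept 21 days without drug and then 3 days in the vehicle DMSO. DTP cells, for drug-tolerant persister, had been under 500 nM osimertinib, an inhibitor of mutant EGFR, for 24 days. Combo cells spent 21 days in 500 nM osimertinib, followed by 3 days in 150 nM AZD5153, a bromodomain inhibitor, and the labels leave unsaid if osimertinib stayed in the medium for those 3 days. For PC9 and H1975 there was also a group given 150 nM AZD5153 for 3 days with no drug in the 21 days before. Each of the 14 groups held 3 libraries, described in the labels as biological triplicates. DTP cells are by design the survivors of a mixed culture, so a change within cells and a change in which cells are present cannot be told apart.

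Most regulatory DNA of a mammalian genome lies away from gene starts, in introns and between genes, where transcription factors open the chromatin and recruit coactivators to form enhancers. Enhancer use differs between cell types more than promoter use does. EGFR signals through RAS and ERK to transcription factors of the AP-1 and ETS families, many of which bind enhancers, and bromodomain inhibitors block the reading of acetylated histones. The gene named for a region below is the one with the nearest annotated start, which does not show that the region acts on that gene.

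Sequence was at hand for the minority of regions that contain a transcript start of RefSeq which the authors' annotation did not place there. In 111 of the 6494 regions the 250 bases upstream of such a start lay wholly inside the region. The AP-1 motif TGANTCA, a palindrome that reads alike on both strands, stood in 40 of these 111 windows (36.0%), against 6.57% of all 35116 RefSeq windows of that length. The other motifs searched on both strands were closer to their share of all windows. GGAATG (TEAD) stood in 11.7% against 11.9%, CCGGAAG (ETS) in 9.91% against 8.52%, TGTTTAC (forkhead) in 7.21% against 2.98%, TGTGGTT (RUNX) in 5.41% against 3.65%, CTTATC (bound by GATA factors) in 9.01% against 5.65%, CAGGTG (bound by ZEB and SNAI factors) in 21.6% against 17.5%, GCCCCCT (CTCF core) in 17.1% against 13.3%, and GGGCGG (GC box) in 39.6% against 42.6%. The grainyhead-like motif AACCNGGTT was in none of the 111 and in 0.202% of all windows. Of the 111 windows, 33 lay in regions called lower in DTP cells of at least 2 of PC9, H1975 and HCC2935 and higher in none, and 18 of those held TGANTCA. It stood in 1 of the 7 windows of regions called higher in at least 2 and lower in none, and in 21 of the other 71. These are counts of letters in windows chosen by where RefSeq places a start, and base composition was not matched.

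The windows below belong to the regions that moved the same way in DTP cells of PC9, H1975 and HCC2935. They are the 4 with the largest of the smallest change among 9 candidates that were lower in all 3, and the 2 candidates that were higher. Candidates were not taken from every chromosome, as stated with the naming rules. They are printed 5′ to 3′ along the strand of the start, from RefSeq on GRCh38.p14, with matches to TGANTCA in capitals.
RAI14 region, start of LOC105374721 (chr5:34585588-34585837, plus strand): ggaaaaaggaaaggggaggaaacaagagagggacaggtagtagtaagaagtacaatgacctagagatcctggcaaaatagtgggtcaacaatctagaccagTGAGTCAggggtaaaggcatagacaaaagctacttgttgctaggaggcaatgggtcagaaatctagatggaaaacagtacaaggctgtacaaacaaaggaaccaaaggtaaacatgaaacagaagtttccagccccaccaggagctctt
MRPS10 region, start of LOC105375061 (chr6:42224489-42224738, plus strand): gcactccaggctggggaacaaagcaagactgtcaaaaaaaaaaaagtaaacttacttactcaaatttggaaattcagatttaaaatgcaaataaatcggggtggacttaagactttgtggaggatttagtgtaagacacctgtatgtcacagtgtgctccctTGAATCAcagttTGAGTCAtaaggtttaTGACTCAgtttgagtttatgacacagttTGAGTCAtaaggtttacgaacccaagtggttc
PARP4 region, start of LOC105370117 (chr13:24502905-24503154, plus strand): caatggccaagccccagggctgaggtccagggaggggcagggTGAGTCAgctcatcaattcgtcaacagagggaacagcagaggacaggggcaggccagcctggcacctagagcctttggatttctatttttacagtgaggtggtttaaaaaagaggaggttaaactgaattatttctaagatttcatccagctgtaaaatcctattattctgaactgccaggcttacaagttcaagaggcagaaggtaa
SLC9A8 region, start of LOC105372652 (chr20:49775372-49775621, minus strand): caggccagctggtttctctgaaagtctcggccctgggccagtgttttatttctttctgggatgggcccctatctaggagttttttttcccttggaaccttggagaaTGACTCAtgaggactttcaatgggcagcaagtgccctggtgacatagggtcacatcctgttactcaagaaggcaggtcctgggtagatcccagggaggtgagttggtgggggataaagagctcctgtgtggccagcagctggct
SUMO1P1 region, start of LOC124904935 (chr20:53866165-53866414, minus strand): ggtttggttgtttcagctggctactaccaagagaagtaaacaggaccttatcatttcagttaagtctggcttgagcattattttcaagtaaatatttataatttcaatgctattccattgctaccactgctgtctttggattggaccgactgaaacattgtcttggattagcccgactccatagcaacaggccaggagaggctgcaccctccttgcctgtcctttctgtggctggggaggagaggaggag
DDX11-AS1 region, start of TSPAN11-AS1 (chr12:31005973-31006222, minus strand): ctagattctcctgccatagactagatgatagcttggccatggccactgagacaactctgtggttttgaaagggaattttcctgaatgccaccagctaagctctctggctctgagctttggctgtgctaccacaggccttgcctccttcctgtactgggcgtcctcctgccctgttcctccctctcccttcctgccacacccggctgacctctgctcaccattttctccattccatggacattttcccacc

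The region near RAI14 held 1 match and had log2 fold changes in DTP cells of -2.30 in PC9, -5.35 in H1975 and -1.54 in HCC2935. The region near MRPS10, a gene of the mitochondrial ribosome, held 4 matches, with log2 fold changes of -1.56, -1.22 and -1.0. Those near PARP4 and SLC9A8 held 1 match each, and their log2 fold changes ranged from -1.51 to -0.69. Neither of the higher regions, near SUMO1P1 and DDX11-AS1, held a match, and their log2 fold changes ran from 0.28 to 3.17 over the 3 lines.

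Depth and library quality differed by line. Total counts over all regions ran from 3989287 to 5193390 per library in PC9, 6200672 to 10062505 in H1975, 1724680 to 4242868 in HCC827 and 3968690 to 8066287 in HCC2935. Replicates of PC9 differed at the shared regions by 0.912 to 1.03 times what counting error alone gives, and those of H1975 by 0.904 to 1.26 times, so p-values in these lines measure a spread that may be only technical. The same ratio was 1.22 to 2.33 in HCC2935 and 1.13 to 2.90 in HCC827. In HCC827 the third library of each group stood apart, with 10.6 to 11.6% of its counts in the shared regions against 4.61 to 8.10% in the other 6. The H1975 libraries labelled AZD5153 also stood apart, and their shifts by chromosome are given with their results. Promoter regions of all 8 epithelial markers checked (EPCAM, CDH1, KRT8, KRT18, KRT19, CLDN4, ESRP1 and GRHL2) were present in every line, with control levels of 10.7 to 80.1 CPM (counts scaled to a common library size). Of 5 leukocyte markers, CD14 alone had a promoter region, in PC9 (3.21 CPM) and H1975 (16.5 CPM), and of 3 endothelial markers, TEK had none in any line while PECAM1 or CDH5 had one in PC9, H1975 and HCC2935 (7.57 to 23.6 CPM).

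The shared regions were among the more open ones of each line. Their median control level was 14.7, 17.5, 16.6 and 12.8 CPM for PC9, H1975, HCC827 and HCC2935, against 4.2, 2.25, 8.45 and 3.55 CPM over all regions tested in the same line. The median shared region thus ranked at the 85.2nd, 92.0th, 80.1st and 87.6th percentile of its line. The authors' peak caller placed a peak summit in 91.52 to 98.31% of the shared regions in PC9 libraries, 94.13 to 98.08% in H1975, 93.22 to 98.31% in HCC2935 and 44.58 to 98.88% in HCC827. In all, 1166 regions (17.96%) held a peak in each of the 42 libraries, and the median region held one in 40. Control CPM of the shared regions differed between lines. The highest line exceeded the lowest by a median of 2.40-fold, and 34.6% of the regions stayed within 2-fold. CPM were scaled within each line over its own regions, and copy number was not removed. These folds are therefore not a measure of openness alone. Spearman's correlation of control levels between lines, a description over 6470 to 6494 regions, was 0.501 to 0.635.

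A few regions were near the top of every line. The region in an intron of EGFR at chr7:55132821-55133322 had control levels of 135, 124 and 120 CPM in PC9, 117, 115 and 108 in H1975, 75.3, 56.7 and 82.0 in HCC2935, and 1010, 780 and 968 in HCC827. The HCC827 libraries lay far above those of the other lines. Its DTP libraries read 98.9, 111 and 104 CPM in PC9 and 73.1, 70.5 and 58.4 in HCC2935, a log2 fold change of -0.27 (SE 0.0565, adjusted p = 3.53e-05) in the former and -0.08 (SE 0.109, adjusted p = 0.572) in the latter. In H1975 the change was -0.31 (adjusted p = 5.05e-07). A region 33199 bp from the start of CYP24A1, the vitamin D 24-hydroxylase (chr20:54123598-54124099), stayed close to its control level in DTP cells, with log2 fold changes of -0.02 in PC9, -0.22 in H1975 and 0.15 in HCC2935, of which H1975 alone passed the test (adjusted p = 0.000171). The region near P3H2, a collagen prolyl hydroxylase (chr3:189937595-189938096), read 108, 107 and 109 CPM in PC9 control libraries and 76.9, 51.4 and 85.8 in those of HCC2935, and fell in DTP cells, with log2 fold changes of -1.02 in PC9, -1.65 in H1975 and -0.87 in HCC2935.

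DTP cells were compared with control cells line by line, with edgeR's quasi-likelihood test fitted on all regions of a line and p-values adjusted (Benjamini-Hochberg) over all of them. A region was called at an adjusted p under 0.05. In PC9, 2575 of the 6494 shared regions were lower in DTP cells (39.7%) and 556 higher (8.56%), where 16.4% of all regions tested were lower and 15.4% higher. In H1975, 3415 were lower (52.6%) and 1068 higher (16.4%), against 27% and 24.9% of all regions. HCC2935 was balanced, with 1374 lower (21.2%) and 1328 higher (20.4%), against 18.6% and 18.7%. The median log2 fold change of the shared regions was -0.26 in PC9, -0.28 in H1975 and 0.01 in HCC2935, while that of all regions was 0.01, 0.02 and -0.01.

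The same counts, read as shares of whole libraries, also showed the loss in PC9 and H1975, which is not a second test. The shared regions took 9.36 to 9.92% of the counts of PC9 control libraries and 7.97 to 8.16% of DTP libraries, and 11.4 to 11.9% against 9.55 to 10.3% in H1975, with no overlap in either line. In HCC2935 they took 8.38 to 9.59% in control and 8.80 to 9.54% in DTP libraries, which overlap. Annotated regions as a whole also took a smaller share in DTP than in control libraries of PC9 and H1975. Lower calls outnumbered higher ones in PC9 and H1975 under each scaling tried, though by less in H1975 when only library size was used (2697 lower and 1776 higher, against 21.7% and 33.7% of all regions) or offsets by signal level (2835 and 1596, against 25.5% and 27%). With the libraries of each group summed and the spread taken from HCC2935, PC9 had 1302 lower and 263 higher calls (against 9.79% and 9.6% of all regions) and H1975 2341 and 576 (against 21.8% and 18.4%). In HCC2935 the balance depended on depth, since among the 4243 shared regions with a mean of at least 50 counts 1232 were lower and 716 higher (29% and 16.9%, against 23.4% and 19.1%). Leaving out any 1 of 7 libraries also put higher calls ahead, with 917 lower and 1427 higher without the third DTP library.

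HCC827 gave few calls. Only 4 regions were higher and 1 lower of 6470 tested, against 0.0219% of all regions in either direction, with 781 at an unadjusted p under 0.05. DESeq2 called 61 higher and 18 lower, against 0.527% of all regions in either direction. Same-numbered HCC827 libraries deviated together, though only in 6 of 9 comparisons did a library match best with its own number. The part of the third library of each group in this was not tested. With the number as a block, 188 shared regions were higher and 305 lower (2.91% and 4.71%, against 2.16% and 1.72% of all regions). Summed libraries gave the opposite balance, 748 higher and 373 lower (11.6% and 5.77%, against 8.49% and 3.96%). The summed comparison took its spread from HCC2935 (biological coefficient of variation 10.1%), where that of HCC827 was 45%. It therefore leaves out most of the spread between HCC827 replicates, and its balance cannot be set against that with the block. The libraries of DTP and control cells did not overlap in 1372 regions of HCC827 (21.2%, against 14.3% of all), 3604 of PC9 (55.5% against 41.6%), 4582 of H1975 (70.6% against 56.1%) and 3176 of HCC2935 (48.9% against 47.2%).

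Other region sets of the same lines gave other shares, and none of these differences between sets was tested. Among the non-promoter regions of PC9 outside the shared set, 20.1% were higher and 26.7% lower in DTP cells, in H1975 27.2% and 44.2%, and in HCC2935 27% and 27.6%. Promoter-proximal regions shared by the 4 lines gave 9.87% and 14.5% in PC9, 14.4% and 31.7% in H1975, and 19.7% and 10.4% in HCC2935. Sets of unequal depth are compared here, and the share called rises with depth. Within the shared regions, the median DTP change was -0.28 in introns, -0.25 between genes, -0.19 in exons and -0.23 in 3' UTRs in PC9, and -0.33, -0.27, -0.19 and -0.10 in H1975. The 38 regions in 5' UTRs had medians of -0.37 and -0.53, and the 10 downstream of genes -0.26 and 0.05, from few regions. Across distance bins from 3 kb to 100 kb the median lay between -0.30 and -0.18 in PC9 and between -0.31 and -0.27 in H1975.

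**Figure D1:**
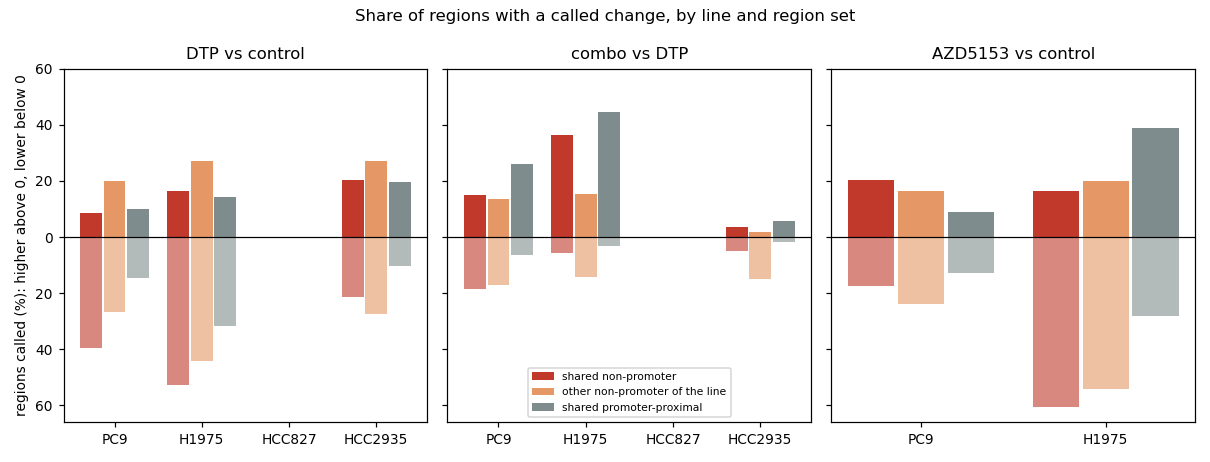
Percent of regions called higher (bars above 0) or lower (paler bars below 0) in each line for DTP against control, combo against DTP and AZD5153 against control, with shared non-promoter regions in red, other non-promoter regions of the line in orange and shared promoter-proximal regions in grey. The shared non-promoter regions fell in 39.7% of cases in PC9 DTP cells and 52.6% in H1975, and HCC827 shows no visible bar, with 5 shared regions called in DTP cells and 0 in combo cells.

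Regions that fell were picked for the size of their smallest change over PC9, H1975 and HCC2935. The region in an intron of KCNMA1, a calcium-activated potassium channel (chr10:77392784-77393285), read 31.5, 30.7 and 32.5 CPM in PC9 control libraries and 6.56, 7.99 and 11 in DTP libraries. In H1975 it read 69.0, 68.5 and 62.2 CPM in control and 9.34, 11.7 and 12.1 in DTP libraries, and in HCC2935 42.4, 50.5 and 42.9 against 19.4, 19.2 and 12.8. Every DTP library of these lines lay below every control library, with log2 fold changes of -1.89 (SE 0.147, adjusted p = 8.54e-32), -2.58 (SE 0.0888, adjusted p = 1.26e-76) and -1.39 (SE 0.146, adjusted p = 2.13e-10). HCC827 read 21.9, 25.4 and 28.7 CPM in control and 10.7, 9.23 and 18.3 in DTP libraries, again without overlap, and its log2 fold change of -1.0 with the replicate block had an adjusted p of 0.0819.

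A region 39994 bp from the start of TOMM20, the import receptor of the outer mitochondrial membrane (chr1:235079404-235079905), was lower in DTP cells of all 4 lines. It read 42.3, 37.3 and 38.7 CPM in PC9 control against 13.4, 13.9 and 20.3 in DTP libraries, and 37.9, 40.1 and 42.2 against 12.7, 14.6 and 15 in H1975. HCC827 read 28.4, 39.4 and 54.4 CPM against 10, 9.23 and 18, and HCC2935 47.6, 31 and 44.1 against 20.9, 22.2 and 19.8. The groups did not overlap in any line, and the log2 fold changes in PC9, H1975, HCC827 and HCC2935 were -1.3, -1.5, -1.68 and -0.97, past the test in each, HCC827 with the replicate block (adjusted p = 0.00123). Without the block HCC827 missed the threshold (adjusted p = 0.172). A region 19138 bp upstream of HPCAL1, a neuronal calcium sensor (chr2:10283250-10283751), had log2 fold changes of -1.93, -1.45, -1.96 and -1.35 in the same order, HCC827 again with the block. Without the block HCC827 missed the threshold there (adjusted p = 0.376). The HPCAL1 region read 47.3, 39.0 and 47.9 CPM in PC9 control against 12.4, 12.1 and 10.5 in DTP libraries. The other 3 regions of this kind, near MIR4309, MIR4708 and RAI1-AS1, had log2 fold changes of -1.67 to -0.94 over PC9, H1975 and HCC2935. All 3 also passed in HCC827 with the block (adjusted p of 0.00265 to 0.01) but not without it (0.175 to 0.29). The MIR4309 and MIR4708 regions lie on chromosome 14, where the median DTP change of the shared regions in HCC2935 was -0.41.

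Regions that rose in all 3 lines were fewer, and 12 met the rule for naming against 193 that fell. The region in an intron of SDC4, the heparan sulfate proteoglycan syndecan-4 (chr20:45342227-45342728), read 16.2, 15.7 and 20.6 CPM in PC9 control and 32.8, 33.0 and 29.8 in DTP libraries. It read 11.1, 10.9 and 12 CPM against 20, 21.9 and 25 in H1975, and 15.7, 13.9 and 9.08 against 30.6, 35.4 and 32.8 in HCC2935. No DTP library of these lines overlapped the controls, and the log2 fold changes were 0.85 (SE 0.123), 0.98 (SE 0.111) and 1.32 (SE 0.156). In HCC827 the DTP libraries read 26.5, 17.6 and 41.8 CPM against 11, 17.2 and 13.1, and the change of 1.04 with the block missed the threshold (adjusted p = 0.0655). A region 47046 bp from the start of CLDN1, a tight junction protein (chr3:190265671-190266172), rose by 0.75, 0.77 and 1.39 in PC9, H1975 and HCC2935, and one in an intron of ATP2B4, a plasma membrane calcium pump (chr1:203692546-203693047), by 1.16, 1.34 and 1.10. In HCC827 the ATP2B4 region read 39.4, 31.8 and 20.7 CPM in control and 25.1, 21.8 and 47.6 in DTP libraries, which overlap. The region assigned to AOPEP, an aminopeptidase (chr9:94870900-94871401), was the only one of these 6 to pass in HCC827 with the block, with a log2 fold change of 1.52 (adjusted p = 0.0216). Without the block it missed the threshold (adjusted p = 0.417).

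**Figure D2:**
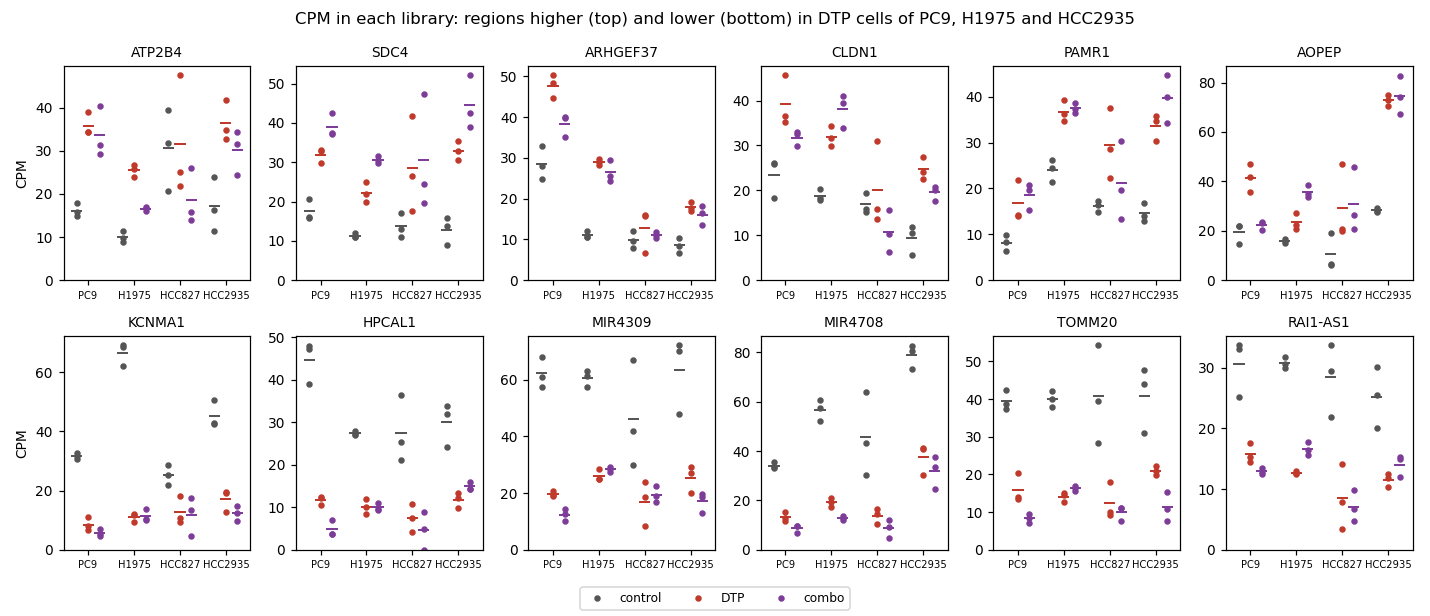
CPM of each library (points) and group mean (short lines) in the 4 lines for the 6 regions that rose (top row) and the 6 that fell (bottom row) in DTP cells of PC9, H1975 and HCC2935, with control, DTP and combo cells in grey, red and purple. Titles give the gene with the nearest start. In the bottom row the HCC827 libraries, which had no part in the calls of direction, also lie lower in DTP than in control cells.

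The same question was then asked of all shared regions at once. Between PC9 and H1975, 2460 regions were called in both lines, and 2088 (84.9%) went the same way, 1851 lower and 237 higher. For PC9 and HCC2935 it was 1201 of 1519 (79.1%), and for H1975 and HCC2935 1601 of 2090 (76.6%). Promoter-proximal shared regions called in both lines went the same way in 74.9%, 75.5% and 70.9% of cases for these pairs. Spearman's correlation of the DTP change between lines, a description over 6494 regions from separate libraries, was 0.42, 0.40 and 0.43. In all, 800 regions (12.3%) were lower in all 3 lines, 167 (2.57%) higher in all 3, and 957 (14.7%) were called in none. With summed libraries these counts were 374 lower and 88 higher. Counts over 3 lines were not made for other regions, so they do not show agreement particular to this set. Lower calls prevailed in PC9 and H1975 alike, which by itself raises the share going the same way.

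**Figure D3:**
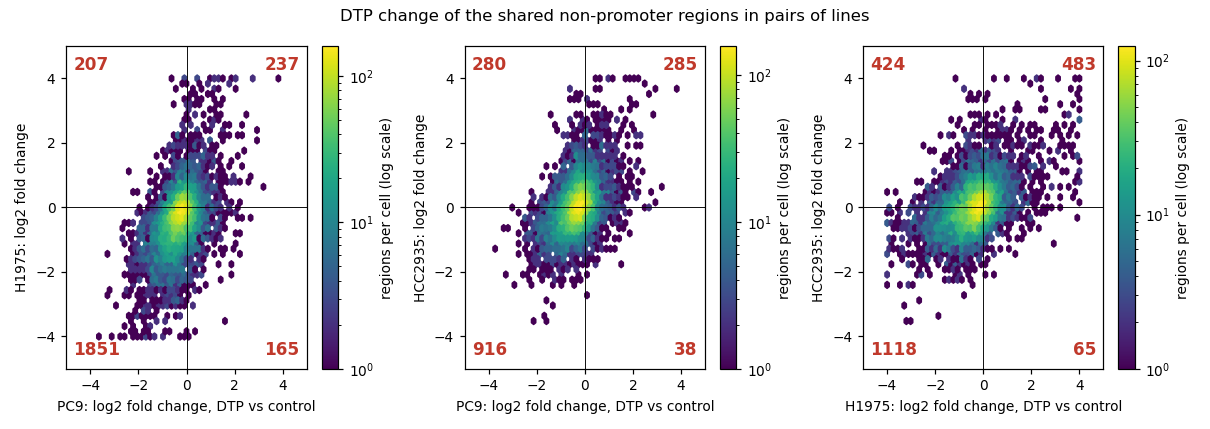
Log2 fold change of DTP against control in 2 lines at a time for the 6494 shared regions (values past 4 drawn at 4), with colour for the number of regions per cell on a log scale. The numbers in the corners count regions called in both lines, of which 2088 of 2460 share a direction for PC9 and H1975.

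Overlap with an HCC827 region was a condition for every shared region, but HCC827 took no part in the calls of direction in the other 3 lines. Its libraries leaned the same way. Of the 167 regions higher in PC9, H1975 and HCC2935, 156 had a log2 fold change above 0 in HCC827, with a median of 1.01, and 69 were called higher and none lower with the replicate block. Of the 800 lower regions, 682 had a change below 0 in HCC827 and 114 above, with a median of -0.55, and the block called 144 lower and 3 higher. Over all shared regions tested in HCC827, 3808 changes lay below 0 and 2662 above, with a median of -0.11, close to the -0.09 over all HCC827 regions, and with summed libraries the median of the shared regions was 0.09. The regions called in none of the other 3 lines had a median of -0.07 in HCC827, and the block called 6 of them lower and 3 higher.

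Libraries were also compared as a whole, without calls. Over the 6494 shared regions, DTP libraries of PC9 correlated with DTP libraries of H1975 at a mean Pearson r of 0.53 on log2(CPM + 5), but with H1975 control libraries at 0.33. Control libraries of PC9 gave 0.50 with H1975 control and 0.48 with H1975 DTP libraries. HCC827 DTP libraries gave 0.50 with H1975 DTP and 0.34 with H1975 control libraries, while PC9 DTP libraries gave 0.57 with HCC2935 DTP and 0.40 with HCC2935 control libraries. Combo libraries stayed close to DTP libraries of their own line, at 0.89, 0.94, 0.74 and 0.92 for PC9, H1975, HCC827 and HCC2935. Since libraries from the same line have a genome and its copy number in common, these values are descriptions.

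**Figure D4:**
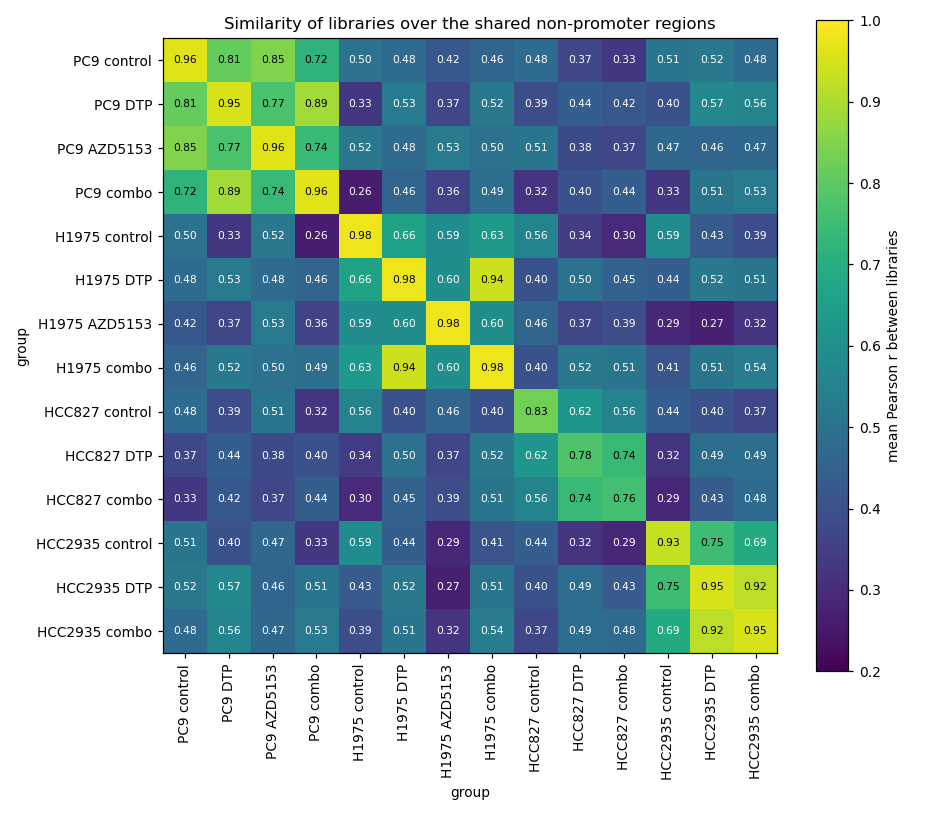
Mean Pearson r of log2(CPM + 5) between the libraries of each pair of groups over the 6494 shared regions, CPM taken within these regions. Values between replicates of 1 group run from 0.76 to 0.98, and DTP libraries of PC9 and H1975 meet at 0.53. The H1975 libraries labelled AZD5153 reach 0.59 with their own controls, as do control libraries of H1975 with those of HCC2935, and H1975 DTP libraries reach 0.66 with these H1975 controls.

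Yet the size of the DTP change often differed between lines. Whether it differed was tested in a joint fit of PC9, H1975 and HCC2935 over the 18055 regions that the 4 lines share, promoters included, where 30.7%, 25.7% and 37% of regions were called for the pairs below. Between H1975 and PC9 the change differed in 2684 shared non-promoter regions (41.3%), 1339 with a higher log2 fold change in H1975 and 1345 with a lower one. HCC2935 and PC9 differed in 2023 (31.2%), 1349 of them higher in HCC2935. HCC2935 and H1975 differed in 3054 (47%), 1923 of them higher in HCC2935. The HCC2935 DTP medians shifted by chromosome, from -0.41 on chromosome 14 to 0.34 on chromosome 8, and the part of copy number was not tested. With the median of each 10 Mb bin removed, HCC2935 differed from PC9 in 1728 (26.6%, against 18.7% of matched regions). From H1975 it then differed in 2757 (42.5%, against 29.8%).

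Regions called in both lines of a pair but in opposite directions numbered 372 for PC9 and H1975, 318 for PC9 and HCC2935 and 489 for H1975 and HCC2935. For PC9 and H1975 the named region lay 15322 bp upstream of PPIF, the mitochondrial cyclophilin D (chr10:79331646-79332147). It read 4.13, 7.10 and 3.72 CPM in PC9 control and 23.3, 24.8 and 25.3 in DTP libraries, while H1975 read 30.9, 28.5 and 33.7 in control and 10.1, 13.4 and 10.1 in DTP libraries. The groups did not overlap in either line, and the difference of the log2 fold changes, H1975 minus PC9, was -3.68 (SE 0.259, adjusted p = 1.42e-17). The PC9 libraries treated with AZD5153 alone were also high at this region, at 19.4, 24.3 and 22.3 CPM. For H1975 and HCC2935 it was a region 66175 bp upstream of MAP4K4, a kinase of stress signalling (chr2:101630174-101630675), with 41.1, 42.5 and 41.1 CPM in H1975 control against 16.1, 14.6 and 16.3 in DTP libraries, and 6.55, 5.32 and 6.57 against 21.7, 20.2 and 22.1 in HCC2935. The difference was 2.96 (SE 0.185, adjusted p = 4.94e-20). For PC9 and HCC2935 a region assigned to MIR5093 (chr16:85395449-85395950) had log2 fold changes of -0.87 in PC9 and 0.90 in HCC2935, a difference of 1.61 (SE 0.184, adjusted p = 6.55e-10).

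Combo cells were compared with DTP cells within each line, and the difference between lines was not tested. If osimertinib was left out for the last 3 days, its withdrawal cannot be told apart from AZD5153 here. In PC9, 964 shared regions were higher and 1197 lower in combo than in DTP cells (14.8% and 18.4%, against 10.6% and 11.7% of all regions), and with summed libraries 126 and 542 (against 2.55% and 5.55%). In H1975, 2373 were higher and 359 lower (36.5% and 5.53%, against 11.5% and 9.48%), with a median of 0.18. Shared promoter-proximal regions of H1975 leaned further this way, with 44.4% higher and 3.3% lower (median 0.22). Its other non-promoter regions gave 15.2% and 14.3%, and these differences between sets were not tested. In HCC2935, 228 were higher and 321 lower (3.51% and 4.94%, against 1.9% and 6.4%). This order turned in HCC2935 without the first DTP library (155 higher, 151 lower), the first or the third combo library (244 and 210, 267 and 148), or the first or the third control library (279 and 233, 382 and 323). HCC827 had 0 calls by edgeR and 0 by DESeq2, against 0.0% of all regions by either tool, with 376 shared regions at an unadjusted p under 0.05 by edgeR. With the replicate block 10 were lower and 0 higher, against 0.0304% and 0.0% of all regions.

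The excess of higher regions in H1975 combo cells depended on the scaling. It shrank to 1186 higher and 820 lower with offsets by signal level (against 8.27% and 9.18% of all regions), where the median was 0.02, and to 1342 and 815 among regions with a mean of at least 50 counts (against 16.3% and 17.5%). In PC9 the tenth and ninetieth percentiles of the change were -0.86 and 0.45. Shared regions called in both PC9 and H1975 went the same way in 722 of 1050 cases (68.8%), against 93.4% of the 2369 shared promoter-proximal regions called in both. For HCC2935 the share was 85.5% of 248 with PC9 and 84.5% of 277 with H1975.

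Few regions moved the same way in combo cells of PC9, H1975 and HCC2935, 60 higher and 49 lower (0.924% and 0.755%). The same count was not made for other regions. Which direction prevailed depended on the scaling, with 27 higher and 88 lower under offsets by signal level and 47 and 70 under library size alone, and on single HCC2935 libraries, with 26 and 45 without the third DTP and 20 and 46 without the second combo library. The highest-ranked of these by the naming rule lay 22736 bp from the start of C7orf25 (chr7:42888673-42889174). It read 14.6, 19.1 and 15.3 CPM in PC9 DTP and 38.5, 38.4 and 36.5 in combo libraries, 13.2, 13.6 and 13.9 against 26.1, 22.8 and 27.4 in H1975, and 14.1, 11.1 and 9.92 against 27.7, 27.2 and 23.4 in HCC2935. All combo libraries lay above all DTP libraries, with log2 fold changes of 1.22, 0.91 and 1.16, while HCC827 gave 0.35 (adjusted p = 1). The same region rose by 0.76 with AZD5153 alone in PC9 and by 0.76 in H1975. Regions near ZFP36L2, an RNA-binding protein of mRNA decay, and ZBTB20, a zinc finger repressor, rose by 0.59 to 0.88 over the 3 lines. The ZFP36L2 region had fallen in DTP cells, with log2 fold changes of -0.69, -0.95 and -0.71, and the combo libraries of PC9 (70.2, 65.2 and 62.3 CPM) stood near control libraries (77.5, 66.4 and 69.7 CPM).

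Regions picked in the same way for falling in combo cells lay near LINC01820, EIF4A2, a translation initiation helicase, and ASL, of the urea cycle. The EIF4A2 region (chr3:186760368-186760869) had log2 fold changes of -0.78, -0.35 and -1.32 in PC9, H1975 and HCC2935. It read 23.9, 16 and 15.8 CPM in HCC2935 DTP and 9.11, 6.49 and 6.84 in combo libraries, which do not overlap, and 17.2, 20.1 and 27 against 8.37, 9.35 and 10 in HCC827, also without overlap but not past the test (log2 fold change -1.22, SE 0.365, adjusted p = 1). The 49 regions lower in all 3 lines leaned the same way in HCC827, where 47 had a change below 0 and none above (2 were not tested), with a median of -0.86, against -0.25 over all shared regions and 0.03 over all HCC827 regions. Of the 60 higher regions, 35 lay above 0 in HCC827 and 25 below.

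AZD5153 alone was tested in PC9 and H1975. In PC9, 1311 shared regions were higher and 1143 lower than in control cells (20.2% and 17.6%, against 11.2% and 14.6% of all regions), with a median of 0.05. In the libraries labelled AZD5153 in H1975, 1056 were higher and 3942 lower (16.3% and 60.7%, against 26.7% and 31.4%), with a median of -0.50. Other non-promoter regions of H1975 were near this, with 20.1% higher and 54.2% lower (median -0.58). Shared promoter-proximal regions gave 38.9% and 28.3%, and these differences between sets were not tested. These H1975 libraries differed from their controls by whole chromosomes. The median change of the shared regions was -1.28 on chromosome 13, -1.01 on chromosome 8 and -0.80 on chromosome 3, but 0.10 on chromosome 11 and 0.16 on chromosome 19, while PC9 medians stayed between -0.09 and 0.09. Over the shared regions they correlated with their own controls at 0.59, where H1975 DTP and combo libraries gave 0.66 and 0.63. The same groups of PC9 gave 0.85, and the H1975 AZD5153 libraries met those of PC9 at 0.53. The part of copy number or of the identity of these libraries in the H1975 result was not tested. With the median of each 10 Mb bin removed, 943 were higher and 3700 lower, against 24.6% and 28.9% of all regions.

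**Figure D5:**
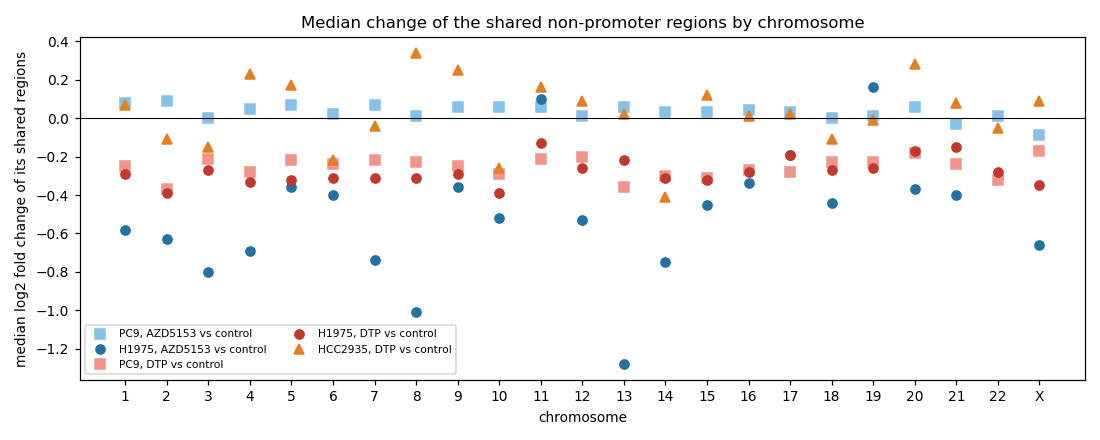
Median log2 fold change of the shared regions on each chromosome for AZD5153 (pale blue squares for PC9, dark blue circles for H1975) and for DTP cells (pink squares for PC9, red circles for H1975, orange triangles for HCC2935) against control cells. The H1975 libraries labelled AZD5153 range from -1.28 on chromosome 13 to 0.16 on chromosome 19, whereas the H1975 DTP medians lie between -0.39 and -0.13, and those of HCC2935 DTP cells range from -0.41 on chromosome 14 to 0.34 on chromosome 8.

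Only 1131 of the 2016 shared regions called with AZD5153 alone in both lines went the same way (56.1%), 874 lower and 257 higher, and 771 were higher in PC9 but lower in H1975. Among those that fell in both, the region in an intron of COBL, an actin nucleator (chr7:51045672-51046173), read 36.2, 34.7 and 38.2 CPM in PC9 control and 14.8, 9.74 and 13.4 with AZD5153, and 41.6, 41.6 and 40.3 against 10.3, 10.8 and 9.58 in H1975. The groups were apart in both lines, with log2 fold changes of -1.53 (SE 0.127) and -2.02 (SE 0.102). It went from 20.2, 18 and 14 CPM in PC9 DTP libraries to 5.85, 3.18 and 4.53 in combo libraries, but in HCC2935 DTP and combo libraries alike it read 42.5 to 49.7 CPM. The region in an intron of HK1, hexokinase 1, had log2 fold changes of -1.63 and -1.77. Among those that rose in both, the region near the start of ETS1, a transcription factor downstream of ERK (chr11:128467558-128468059), read 12.7, 13.2 and 11.2 CPM in PC9 control against 27.5, 23 and 26.3 with AZD5153, and rose by 1.05 (SE 0.141) and 1.07 (SE 0.0852). In HCC2935 the same region went from 1.31, 0.591 and 1.88 CPM in control to 26.8, 26.3 and 17.4 in DTP libraries.

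Whether AZD5153 acted differently on DTP and on untreated cells was tested as an interaction. In PC9, 672 shared regions had a higher change in DTP cells and 1053 a lower one (10.3% and 16.2%, against 7.32% and 6.46% of all regions). In H1975, 4131 were higher and 563 lower (63.6% and 8.67%, against 24.4% and 18.2%), which carries the chromosome-wide shifts of the AZD5153 libraries. Other non-promoter regions of H1975 gave 46.8% and 16.3%, and shared promoter-proximal ones 35.2% and 17.2%. Of 980 PC9 regions called in both comparisons, which share no library, 709 (72.3%) went the same way in DTP and untreated cells. In H1975 it was 680 of 2168 (31.4%).

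Gene lists chosen for the pathways of these drugs, with earlier results of these data known, were followed at their shared regions in DTP cells. Early targets and feedback inhibitors of ERK had 21 regions near 9 of 21 genes, of which 11 were lower and 2 higher in PC9, 14 and 3 in H1975, and 10 and 1 in HCC2935, with 7 lower in all 3 lines and none higher. Their median changes were -0.51, -0.81 and -0.33, against -0.26, -0.28 and 0.01 over all shared regions. Of all shared regions, 39.7%, 52.6% and 21.2% were lower and 8.56%, 16.4% and 20.4% higher in these lines. In all 3 lines, 12.3% were lower and 2.57% higher. The region 89353 bp upstream of DUSP5, a nuclear phosphatase of ERK (chr10:110408053-110408554), had log2 fold changes of -1.16, -3.51 and -1.39. A region downstream of the start of CCND1, cyclin D1 (chr11:69654643-69655144), gave -1.72, -1.93 and -1.25, and regions near ETV1, an ETS factor, and SPRED2, an inhibitor of RAS signalling, gave -1.81 to -0.60.

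For the lists that follow, the shares over all shared regions were 39.7% lower and 8.56% higher in PC9, 52.6% and 16.4% in H1975, and 21.2% and 20.4% in HCC2935. Genes of epithelial junctions and keratins had 28 shared regions, of which 15 fell and 4 rose in PC9, 21 and 4 in H1975, and 9 and 6 in HCC2935, with medians of -0.41, -0.60 and -0.05. Near EPCAM, an epithelial adhesion molecule, the region at chr2:47360878-47361379 had log2 fold changes of -2.09, -3.06 and -3.46, and a region near ELF3, an epithelial ETS factor, had -0.96, -1.52 and -0.83. The region near TJP1, a scaffold of tight junctions, went the other way, with 1.18 in PC9 (adjusted p = 0.00222), 0.54 in H1975 (adjusted p = 0.25) and 1.78 in HCC2935 (adjusted p = 0.000863). YAP and TEAD targets had 53 regions that split by line, with 6 higher and 13 lower in PC9, 15 and 22 in H1975, and 20 and 9 in HCC2935, and medians of -0.18, -0.17 and 0.18. Here the region near CCN1, a matricellular target of YAP (chr1:85612759-85613260), rose by 1.52, 3.30 and 1.12, and by 1.43 in HCC827 with the block (adjusted p = 0.00902, but 0.282 without the block). Its H1975 control libraries were low, at 0.928, 0.673 and 0.539 CPM. The region near FJX1 rose by 0.94, 2.02 and 1.85, whereas the one in AMOTL1, an angiomotin that holds YAP, had -2.06 and -2.68 in PC9 and H1975 and -0.14 (adjusted p = 0.559) in HCC2935.

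The other lists were smaller or mixed. Genes of epithelial-mesenchymal transition had 29 regions, with 13 lower and 2 higher in PC9, 16 and 4 in H1975, and 4 and 8 in HCC2935, and medians of -0.23, -0.38 and 0.22. The region near TNS3, a focal adhesion tensin, rose by 1.83, 4.16 and 3.01 from low control levels. These were 0.464, 0.135 and 0.674 CPM in H1975, and HCC827 gave a change of 0.27 with the block (adjusted p = 0.819). Of 2 regions near TGFBR2, a receptor of TGF-beta, 1 had log2 fold changes of -0.84, -1.55 and -0.18 and the other -1.41, -0.38 and -0.76, where -0.18 (adjusted p = 0.631) and -0.38 (adjusted p = 0.102) missed the test. A region of CDH1, E-cadherin, had -0.97 in H1975 and -1.0 in HCC2935 but -0.05 in PC9 (adjusted p = 0.907). Genes of AP-1 and ATF factors had 12 regions, 6 lower and none higher in PC9, 8 and 1 in H1975, and 5 and 3 in HCC2935, and medians of -0.38, -0.30 and -0.08, and the region in BATF had log2 fold changes of -1.61, -3.06 and -0.59. Receptor kinases had 26 regions, with 11 lower and 2 higher in PC9, 10 and 2 in H1975, and 3 and 2 in HCC2935, and medians of -0.28, -0.07 and -0.04. A region 33187 bp upstream of EGFR had log2 fold changes of -0.39 in PC9, -2.89 in H1975 and -0.30 (adjusted p = 0.165) in HCC2935. Retinoid and aldehyde dehydrogenase genes had 16 regions and lung lineage genes 6, with 7 and 4 of them called in PC9, 8 and 3 in H1975, and 8 and 2 in HCC2935. Their medians were -0.21, -0.17 and 0.05 for the former and -0.50, -0.29 and -0.25 for the latter.

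Some genes held many shared regions. The 6494 regions were assigned to 4297 genes, and 47 genes held 6 or more, with COBL (11), CUX1 (10) and PRKCE (9) leading. The median DTP change was below 0 in PC9, H1975 and HCC2935 at 24 of these 47 genes and above 0 in all 3 at none. Over all shared regions the median was -0.26, -0.28 and 0.01. Of all shared regions, 39.7%, 52.6% and 21.2% were lower and 8.56%, 16.4% and 20.4% higher. At SDC1, the epithelial syndecan-1, 7 of 8 regions were lower in each of the 3 lines, with medians of -0.81, -0.93 and -0.86 and, in HCC827, -0.52. At HPCAL1, 6 of 7 regions were lower in PC9 and H1975 and 5 in HCC2935, with medians of -0.69, -0.91 and -1.03. At EPB41L4B, a band 4.1 family protein, the medians were -0.70, -1.27 and -0.64, and at PRKCE, protein kinase C epsilon, 7, 8 and 3 of 9 regions were lower. RXRA, the retinoid X receptor alpha, differed, with 5 of 8 regions higher in HCC2935 (median 0.83), 3 in H1975 and 1 in PC9. It lies on chromosome 9, where the HCC2935 median over all shared regions was 0.25. MYEOV, on chromosome 11, had all 6 regions lower in HCC2935 (median -0.86) and 4 and 3 lower in PC9 and H1975. At CDH1, all 6 regions were lower in H1975 DTP cells (median -0.86) and in the H1975 libraries labelled AZD5153 (median -2.82), but in PC9 AZD5153 libraries 2 were lower and none higher. Of all shared regions, 60.7% were lower in these H1975 libraries (median -0.50) and 17.6% in those of PC9. Neighbouring regions are not independent of each other.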

How the data were processed

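ATAC-seq data of 42 libraries in 14 groups of 3 were analysed. The authors deposited raw counts per region of fixed width for each line, with the distance to the nearest gene start, and a peak list per library with the fold enrichment of each peak (a ratio) and the −log10 of its q-value. Their processing notes name BWA 0.7.17, SAMtools 1.9, deepTools 3.4, MACS2 2.2.6, featureCounts 2.0.0 and ChIPseeker 1.29.1 on hg38. The extraction protocol in the labels describes H3K27ac ChIP-seq, but titles and design say ATAC-seq, and the values were read as such. Regions were called separately in each line, and counts were normalised within a line.

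Counts were tested in edgeR 4.0.16 (R 4.3.3, TMM factors, quasi-likelihood F test) over all 82309 to 191202 regions of a line that passed filterByExpr, with Benjamini-Hochberg adjusted p under 0.05 as the threshold. The adjusted p-values in the report come from these fits. CPM are counts scaled to library size and TMM factors. All 6494 shared regions passed the filter in PC9, H1975 and HCC2935, and 6470 in HCC827. Differences between lines were tested in 1 fit over 18055 regions matched across lines, with TMM factors of these regions. Summed libraries were compared with the dispersion of HCC2935, since no replicate is left. That dispersion (0.0103) is far below the one of HCC827 (0.203), so summed calls in HCC827 understate the spread of that line. Same-numbered libraries deviated together in HCC827 (r of 0.25 to 0.871 over 9 pairs), so values with the replicate number as a block are given for that line. DESeq2 1.42.0 was an alternative. The main fit was tested on simulated control and DTP counts of PC9 and HCC2935. The other procedures were not tested on simulated data.

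Regions were named for moving the same way in the lines compared, with libraries of the groups apart and a level above the median of the shared regions, ranked by the smallest change (DTP: 6 each way, combo: 3, AZD5153: 2), for moving in opposite ways, for the highest rank in the lowest line, or from the gene lists. Members, lists and rules were chosen with earlier results of these data known, and the motif windows after the data had been examined. Windows on chromosome 8 were left out before the candidates for the printed windows were counted and ranked. Whole-region sequences were not analysed here.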

Additional observations from a re-analysis of the deposited data

Results flagged for a closer look

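In the joint fit the DTP change was called different between H1975 and PC9 in 2684 shared regions, between HCC2935 and PC9 in 2023, and between HCC2935 and H1975 in 3054. Single regions were picked out because their libraries moved in opposite ways in a pair of lines and the difference passed the test. The log2 fold change near PPIF was lower in H1975 than in PC9, with a difference of -3.68 (SE 0.259). The one near MIR5093 was higher in HCC2935 than in PC9 by 1.61 (SE 0.184), and the one near MAP4K4 was higher in HCC2935 than in H1975 by 2.96 (SE 0.185). The change from DTP to combo cells was called different from the AZD5153 change in untreated cells in 1725 shared regions of PC9. In H1975 it was 4694, where the AZD5153 libraries carry the shifts by chromosome.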

How the results depend on the processing

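Of 213 counts of called shared regions under alternatives other than leaving out a library, 144 lay within 1.5 times the main count, and of 276 counts with a library left out, 261 did. Of 3660 alternative values of named regions, 3499 kept direction and side of the threshold, 149 fell short of it, 11 newly passed and 1 reversed, the CYP24A1 region in H1975 DTP cells (0.03 with offsets by signal level). The cause of these moves was not tested, beyond smaller sets having fewer regions to call. Summed libraries of HCC827 were tested with the spread of HCC2935, which is below that of HCC827. PC9 and H1975 replicates vary little more than counting error, HCC827 has the shallowest library and the widest spread between replicates (biological coefficient of variation 45%, against 0.988 to 10.1% in the other lines), and the labels do not separate copy number from accessibility.

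In PC9, H1975 and HCC2935, respectively, there were 866, 1523 and 865 DTP calls with a change of 1 or more (log2) and 1966, 2906 and 1772 past 10 kb. With a mean of at least 50 counts PC9 had 1716, and with summed libraries PC9 had 1565 and H1975 2917. HCC827 DTP calls numbered 3 under library size alone, 3 with an overlap of at least 400 bp, 11 with no filter, 11 with regional medians removed, 16 with at least 50 counts, 79 by DESeq2, 81 over annotated regions only, 493 with the replicate block and 1121 with summed libraries. HCC827 combo calls numbered 10 with the replicate block and 440 with summed libraries.

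Combo calls in PC9 numbered 1249 by DESeq2, 1271 with at least 50 counts, 668 summed, 524 at a change of at least 1 and 1399 past 10 kb. In H1975 they numbered 1753 by DESeq2, 405 summed, 134 at a change of at least 1 and 1766 past 10 kb, and in HCC2935 210 by DESeq2, 215 with no filter, 157 summed and 75 at a change of at least 1. AZD5153 calls in PC9 numbered 1533, 1430, 932 and 483 by DESeq2, at 50 counts, summed and at a change of at least 1, and in H1975 2281 at that change and 3231 past 10 kb. The PC9 interaction gave 924, 980, 449 and 776 in the same order and 1142 past 10 kb, and that of H1975 2718 at a change of at least 1 and 3038 past 10 kb.

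Regions sharing a DTP direction in 3 lines numbered 641 by DESeq2, 529 with no filter, 435 at 50 counts, 462 summed, 166 at a change of at least 1 and 621 past 10 kb. For combo these were 27, 32, 57, 12 and 7 under the first 5 settings. For AZD5153 in PC9 and H1975 they were 685, 654, 655, 359, 162 and 751. DTP differences between lines of at least 1 numbered 1170, 978 and 1359 for H1975 and PC9, HCC2935 and PC9, and HCC2935 and H1975, and summed 1043, 676 and 1311.

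The balance of higher and lower calls moved by over 10 percentage points in several cases. Under library size alone it was 1776 higher and 2697 lower for H1975 DTP, 1731 and 597 for H1975 combo, 1648 and 3309 for H1975 AZD5153, 3285 and 1151 for the H1975 interaction and 446 and 1247 for that of PC9. With offsets by signal level it was 1596 and 2835, 1186 and 820, 1622 and 3348, 3134 and 1262, and 340 and 1201 for these, and 628 and 1357 for PC9 combo. With no filter, PC9 combo gave 905 and 740, PC9 AZD5153 1433 and 574, and HCC2935 DTP 1498 and 646. At a change of at least 1 it was 47 and 477 for PC9 combo, 119 and 657 for the PC9 interaction, 91 and 43 for H1975 combo, 240 and 2041 for H1975 AZD5153, 512 and 353 for HCC2935 DTP and 6 and 69 for HCC2935 combo, which also gave 126 and 393 at 50 counts, 53 and 157 by DESeq2 and 33 and 124 summed. Library size alone moved the median of all H1975 regions from 0.02 to 0.22 in DTP cells and from -0.04 to 0.18 with AZD5153.

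With 1 library left out, DTP calls ranged from 2724 to 3147 in PC9, 4168 to 4435 in H1975, 2061 to 2744 in HCC2935 and 0 to 68 in HCC827 (68 without the third combo library, 0 without any 1 of the control, the first 2 DTP or the second combo libraries). Combo calls ranged from 1741 to 2164 in PC9, 1977 to 2790 in H1975, 263 (without the second DTP library) to 705 in HCC2935 and stayed at 0 in HCC827. AZD5153 calls ranged from 2068 to 2453 in PC9 and 4665 to 5010 in H1975, and the interactions from 1448 to 1561 and 4392 to 4725. Shared directions ranged from 724 to 968 for DTP, 63 to 144 for combo and 939 to 1129 for AZD5153, and the differences between lines from 2365 to 2820, 1801 to 2092 and 2760 to 3042 in the order above. The numbers were not taken to pair samples in PC9, H1975 or HCC2935. In these lines a library matched best the library of its own number in another group in 4 of 18, 4 of 18 and 5 of 9 comparisons. In HCC827 it was 6 of 9. The replicate block gave 3127, 4449 and 2748 DTP calls in PC9, H1975 and HCC2935.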
